A study of Homo sapiens with 12 samples.

Results

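K-562 cells in which a mutant form of the transcription factor MYB, D152V, was expressed during knockdown of MYB are set here against cells with the knockdown alone. The comparison takes 6 of the 12 RNA-seq libraries of the series: 3 of the D152V rescue and 3 of the MYB knockdown. K-562 is an established human erythroleukaemic cell line. The D152V rescue cells stably expressed the mutant with a TY tag (3xTY-D152V) and received the siRNA si2992 against MYB. The knockdown cells received the same siRNA and stably expressed the tag alone (3xTY1). The wild-type rescue libraries, 3 in number, came from cells with tagged wild-type MYB (3xTY-hcM) and si2992, and the 3 control libraries from cells with the tag alone and a non-targeting siRNA. RNA was taken 24 h after transfection in 3 individual experiments, with poly(A) selection and a stranded library kit. All of these lines had been selected with G418, and every rescue is a line of its own, so a difference between lines and a difference between MYB forms cannot be told apart. Whether a line was 1 clone or a pool, and whether the introduced transcripts resist si2992, is not given in the labels.

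MYB binds DNA through Myb repeats near its N-terminus and recruits coactivators such as p300 and CBP. In blood-forming tissue it keeps progenitor cells proliferating and holds back their maturation, and in leukaemia cell lines its loss slows growth. D152V replaces an aspartate in the third repeat, and the study's comparison asks how much of the transcription lost with MYB such a form restores. The changed residue is shown here in the coding sequence of the GENCODE transcript ENST00000341911 (MYB, chromosome 6), from codon 142 to codon 162, with the codon of that aspartate in capitals. The nucleotide change that was made in the construct is not given in the labels and is not shown.
MYB coding sequence: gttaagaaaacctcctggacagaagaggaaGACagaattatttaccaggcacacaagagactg

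Values are FPKM, fragment counts scaled by transcript length and library size, as the authors deposited them. A gene was tested where it reached an FPKM of 1 in at least 3 of the 6 libraries, which 12726 genes did. Differences are on the scale log2(FPKM + 1), on which changes of genes with few fragments come out too small, and are given as D152V rescue minus knockdown unless another pair is named. Intervals are 95% intervals of single genes, and a gene is said to be higher, lower, raised or reduced by the test where limma's Benjamini-Hochberg adjusted p over all tested genes was under 0.05. Knockdown replicate 1 stood apart from the rest: its FPKM values summed to 1215578, against 672616 to 798362 in the other 11 libraries. Its correlation with the other knockdown libraries was 0.926 and 0.927, while replicates of the other groups, and the other knockdown pair, correlated at 0.985 or above. Counts without it are therefore given too.

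MYB itself was first checked (GRCh38, chr6:135181308-135219172). Its FPKM was 86.6, 86.2 and 100 in the D152V rescue libraries, against 26.1, 32.9 and 31.5 in the knockdown libraries, 132, 125 and 115 in the wild-type rescue libraries and 124, 132 and 104 in the control libraries. Every D152V rescue library was above every knockdown library and below every wild-type rescue and control library. MYB RNA thus stood at 75.8% of the control mean in the D152V rescue and 25.1% in the knockdown. The log2 difference from the knockdown was 1.56 (interval 1.28 to 1.85, adjusted p = 2.83e-05). Against the wild-type rescue the difference was -0.44 (adjusted p = 0.0512, and 0.00516 without knockdown replicate 1), with every D152V rescue library below every wild-type rescue library. A gene-level value counts endogenous and introduced transcripts together.

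The D152V rescue differed broadly from the knockdown. Of 12726 genes, 1745 were higher (13.7%) and 1589 lower (12.5%), and the median of all tested genes was 0.02. At least 2-fold differences were found for 395 of the higher and 490 of the lower genes. Without knockdown replicate 1 the counts were 2229 higher (17.5%) and 2090 lower (16.4%), and 1605 of the 1745 and 1472 of the 1589 genes were called both ways. The counts lean on the spread shared with the other groups: a fit to the 6 libraries alone called 341 higher and 213 lower genes. They also fell without a D152V rescue library, to 1008 higher and 777 lower without replicate 1, 834 and 787 without replicate 2, and 925 and 884 without replicate 3. The counts were 1957 and 2044 without knockdown replicate 2, and 2223 and 2154 without knockdown replicate 3. Quantile normalization gave 1969 and 1883. Counts of list members given below for a setting are to be read beside the all-gene counts of that setting. 

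Called genes were placed by how the D152V rescue and the knockdown lay among the 12 libraries. For 486 of the 1745 higher genes (27.9%) every D152V rescue library lay above the 9 other libraries, as it did for 4.86% of all tested genes. For 843 (48.3%) every knockdown library lay below the 9 others, against 10.4% of all tested genes. Among the 1589 lower genes, 454 (28.6%) had the D152V rescue below all others (background 5.17%) and 828 (52.1%) had the knockdown above all others (background 9.04%). Both held at once for 56 higher genes (3.21%) and 80 lower genes (5.03%), and the share among all tested genes was not taken for this. The calls and these positions rest on the same libraries, so they are a description. Among higher genes of at least 2-fold, the D152V rescue stood above all others in 214 of 395 and the knockdown below all others in 137. Among lower genes of at least 2-fold, the D152V rescue stood below all others in 149 of 490 and the knockdown above all others in 314.

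The 12 largest increases were mostly genes that were low in every other group. RBPMS2, an RNA-binding protein that acts in smooth muscle, had 45.8, 43.3 and 47.7 FPKM in the D152V rescue, against 1.04, 0.477 and 1.01 in the knockdown. Its wild-type rescue values were 1.62, 3.21 and 3.16 and its control values 0.502, 0.784 and 1.17. The D152V rescue lay far above the 9 other libraries, with a log2 difference of 4.68 from the knockdown (interval 4.21 to 5.14, adjusted p = 1.88e-07). TPD52, a vesicle-trafficking protein, had 26.6, 25.1 and 28.3 FPKM in the D152V rescue, against 0.501, 0.247 and 0.352 in the knockdown, and the highest of the remaining libraries was a control library at 1 FPKM. ENAH, a regulator of actin filaments, had 16.1, 22.3 and 24.1 FPKM in the D152V rescue, against 0.207, 0.18 and 0.43 in the knockdown. Both were far higher in the D152V rescue than in the 9 other libraries, and the log2 differences were 4.34 for TPD52 and 4.09 for ENAH (adjusted p = 3.73e-08 for each).

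SCN2A, a neuronal sodium channel subunit, had 10.4, 11.1 and 10 FPKM in the D152V rescue, against 0.205, 0.458 and 0.557 in the knockdown. IL1RL1, the receptor of interleukin-33, had 12.6, 17.4 and 11.4 FPKM in the D152V rescue, against 0.692, 1.17 and 1.04 in the knockdown. ALDH1L1, an enzyme of folate metabolism, had 9.8, 10.3 and 16.1 FPKM in the D152V rescue, against 0.404, 1.5 and 1 in the knockdown. In all of these the D152V rescue was above the 9 other libraries, and the log2 differences were 3.04, 2.90 and 2.74. PAK1, a kinase of the cytoskeleton, was 15.5, 15.4 and 15 FPKM in the D152V rescue, against 1.19, 1.5 and 1.52 in the knockdown and 4.73, 6.09 and 8.68 in the wild-type rescue. IFI16, a DNA sensor induced by interferon, was 66.5, 72.1 and 84.3 FPKM in the D152V rescue, against 15.3, 11.8 and 10.7 in the knockdown, 24.9, 25.4 and 31.4 in the wild-type rescue and 7.83, 8.44 and 7.56 in the control. For PAK1 and IFI16 the wild-type rescue was also above the knockdown in every library, but below the D152V rescue by 1.15 and 1.42 on the log2 scale (adjusted p = 0.00125 and 0.000115).

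GOLM1, a Golgi membrane protein, and LIF, a cytokine of the interleukin-6 family, completed this group with log2 differences of 2.51 and 3.03. LIF was uneven within the D152V rescue, at 19.1, 15.7 and 5.01 FPKM, against 0.22, 1.18 and 0.385 in the knockdown. TUBA3C, an alpha-tubulin, was at 53.2, 56.6 and 37.6 FPKM in the D152V rescue, against 1.74, 1.37 and 1.88 in the knockdown, but alpha-tubulin genes have near-identical copies, so its reads cannot be placed with certainty. The read-through CFAP298-TCP10L was the exception to the pattern. It had 26, 21.5 and 29.6 FPKM in the D152V rescue, against 0.779, 2.16 and 9.47 in the knockdown, 32.5, 48.2 and 36.2 in the wild-type rescue and 24.1, 30.6 and 25.1 in the control, so here the knockdown was the group that stood apart. It overlaps the genes it joins, CFAP298 among them, and the fit to the 6 libraries lost it (adjusted p = 0.0525).

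**Figure D1:**
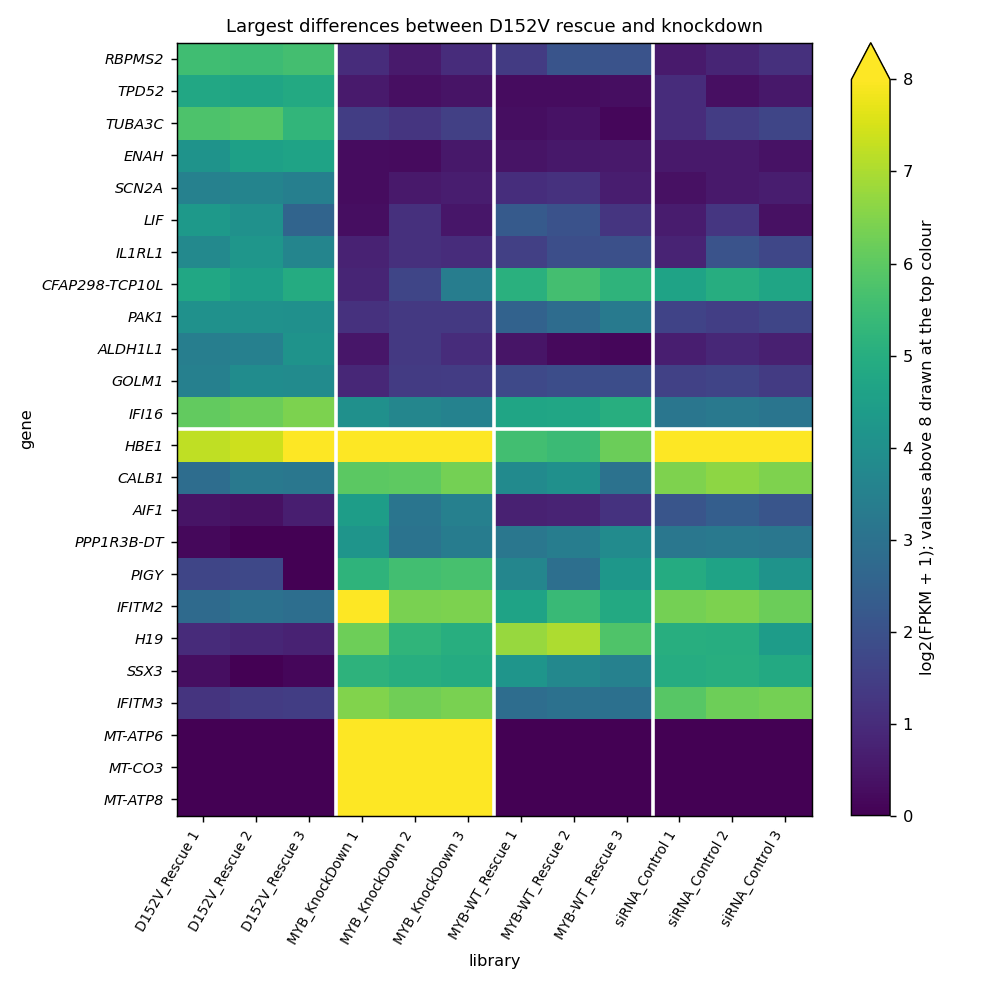
Heat map of log2(FPKM + 1), from 0 to 8, for the 12 genes with the largest increases (above the white line) and the 12 with the largest decreases (below it) in each of the 12 libraries, ordered D152V rescue, knockdown, wild-type rescue and control. Most of the upper genes are bright in the D152V rescue alone, as RBPMS2 at 43.3 to 47.7 FPKM, while SSX3 and PPP1R3B-DT are dark in the D152V rescue alone.

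The largest decreases held 3 mitochondrial genes whose values need care. MT-ATP8, a subunit of ATP synthase, was listed at 0 in all 3 D152V rescue libraries, against 18700, 39700 and 38300 FPKM in the knockdown libraries, and at 0 in the 6 remaining libraries too. MT-ATP6, another subunit, was likewise listed at 0 in the D152V rescue and the 6 remaining libraries, against 6180, 5180 and 5130 in the knockdown. MT-CO3, a subunit of cytochrome oxidase, was listed at 0 in those 9 libraries, against 16300, 9910 and 12200 in the knockdown. The 0 values are no measure of absence, since neighbouring genes of the same transcripts were plentiful: MT-CO2 had 25600, 18400 and 20900 FPKM in the D152V rescue, against 21600, 10300 and 12600 in the knockdown. No fold is given for them, and whether the estimate failed in the 9 libraries was not tested.

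A pair of interferon-induced membrane proteins that block virus entry were among the largest decreases of nuclear genes. IFITM3 had 1.29, 1.61 and 1.72 FPKM in the D152V rescue, against 87.6, 76.1 and 83.3 in the knockdown, 6.28, 6.92 and 6.71 in the wild-type rescue and 59.4, 74.3 and 79.7 in the control. Both rescue lines were thus far below the lines with the tag alone, and the D152V rescue was the lowest, by 5.04 on the log2 scale against the knockdown (interval -5.32 to -4.75, adjusted p = 7.44e-10). IFITM2 had 5.75, 6.87 and 6.34 FPKM in the D152V rescue, against 670, 83.6 and 84.2 in the knockdown, where replicate 1 was far above the others. Its log2 difference was -4.53, and -3.54 without that library. IFITM1 had 157, 160 and 160 FPKM in the D152V rescue, against 301, 291 and 248 in the knockdown. It differed by -0.80 (adjusted p = 0.00261), a call lost under quantile normalization (0.0581) and with the length trend removed (0.087). These genes are near copies of each other and share reads, so their separate values are uncertain.

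H19, an imprinted non-coding RNA, had 0.959, 0.802 and 0.683 FPKM in the D152V rescue, against 73.5, 36.8 and 31.4 in the knockdown, 108, 127 and 54.8 in the wild-type rescue and 31.2, 30.7 and 20.4 in the control. It was below 1 FPKM in the D152V rescue alone, with a log2 difference of -4.64 from the knockdown (interval -5.39 to -3.88, adjusted p = 1.09e-05). SSX3, a cancer-testis gene of the X chromosome with near copies, had 0.219, 0 and 0.0967 FPKM in the D152V rescue, against 34.8, 31.6 and 29 in the knockdown and 16.9, 12.3 and 10.4 in the wild-type rescue. The non-coding RNA PPP1R3B-DT had 0.127, 0 and 0 FPKM in the D152V rescue, against 17.1, 7.31 and 9.34 in the knockdown. All 3 of these transcripts lay below the 9 other libraries. AIF1, an actin-binding protein of myeloid cells, and CALB1, a calcium-binding protein, behaved differently: the D152V and wild-type rescues were both low. CALB1 had 6.19, 8.34 and 8.06 FPKM in the D152V rescue, against 62, 64 and 78.9 in the knockdown, 13.1, 15.2 and 7.04 in the wild-type rescue and 87, 98.9 and 86.9 in the control. AIF1 had 0.339, 0.296 and 0.595 FPKM in the D152V rescue, against 21.1, 7.64 and 10.1 in the knockdown and 0.674, 0.72 and 1.26 in the wild-type rescue. The 2 rescues did not differ by the test in either gene (log2 difference -0.53 for CALB1, interval -1.03 to -0.03, adjusted p = 0.174; -0.41 for AIF1, interval -1.04 to 0.22, adjusted p = 0.439). Without wild-type rescue replicate 3 CALB1 was lower in the D152V rescue than in the wild-type rescue by 0.83 on the log2 scale (adjusted p = 0.0107). PIGY, which overlaps PYURF, had 2.22, 2.36 and 0 FPKM in the D152V rescue, against 35.5, 46.4 and 50.4 in the knockdown.

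Genes fixed for reporting, with earlier results of these data known, included some that were higher in the D152V rescue. For others no difference from the knockdown was found. MYADM, a myeloid membrane protein, and UCA1, a long non-coding RNA, were raised. MYADM had 34.4, 30 and 20.7 FPKM in the D152V rescue, against 7.6, 19 and 13.2 in the knockdown, 46.4, 44.6 and 29.9 in the wild-type rescue and 73.9, 66.8 and 55.7 in the control. The D152V rescue and the knockdown did not overlap, and the log2 difference was 1.09 (interval 0.45 to 1.74, adjusted p = 0.021). Against the control the D152V rescue was lower by 1.20 on the log2 scale (adjusted p = 0.0239, but 0.0623 and 0.112 without D152V rescue replicate 2 or 3 and 0.0993 and 0.0861 without control replicate 1 or 2), and against the wild-type rescue the difference was -0.50 (interval -1.14 to 0.14, adjusted p = 0.341). UCA1 had 45.3, 45.5 and 72.9 FPKM in the D152V rescue, against 28.7, 26.6 and 42.7 in the knockdown, 157, 171 and 192 in the wild-type rescue and 111, 103 and 115 in the control. Its groups did not overlap either; the difference of 0.72 from the knockdown (adjusted p = 0.0283) stood beside one of -1.68 from the wild-type rescue (interval -2.14 to -1.23, adjusted p = 0.000323). The MYADM call was lost in the fit to the 6 libraries (0.11) and without D152V rescue replicate 1 (0.0781) or 2 (0.0701). The UCA1 call was lost in 5 of 24 settings tried. Among them were the fit to the 6 libraries (0.145) and those without D152V rescue replicate 3 (0.0979) or knockdown replicate 2 (0.0651).

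The promoter of MYADM is shown because MYB recognises short hexamers of the form TAACGG, in which the first base may also be C and the fifth T, and 1 of its 3 RefSeq promoters holds 2 of them. The window is the 250 bases before the start on the plus strand (RefSeq, GRCh38.p14, chr19:53866121-53866370), with both sites in capitals. On the minus strand the site 99 bases before the start reads CAACTG. The site 50 bases before it reads TAACGG on the same strand, and the sites do not overlap.
MYADM promoter: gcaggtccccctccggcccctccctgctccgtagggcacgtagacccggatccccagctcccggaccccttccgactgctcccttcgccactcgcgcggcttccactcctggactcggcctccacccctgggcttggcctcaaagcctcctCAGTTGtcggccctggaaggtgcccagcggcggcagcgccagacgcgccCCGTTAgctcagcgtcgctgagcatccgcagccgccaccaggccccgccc
A search of both strands of all 35116 RefSeq promoters, each of 250 bases before to 50 after the start, found at least 1 of these hexamers in 25.7%. Taken by gene, 30.2% of 1308 matched genes that were higher had one, as did 31.5% of 1224 matched lower genes and 30.4% of 9316 matched tested genes. These shares lay close together. Of other genes named here that were looked up, RBPMS2, SCN2A and H19 each had 1 promoter with a hexamer. STAT5A, KIT, RUNX1, PAK1 and IFITM3 had none, and LMO2 had no promoter in the set. A match describes the letters in the window and is no binding site.

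LMO2, STAT5A, KIT, RUNX1 and MYC were not higher than the knockdown by the test with all 12 libraries weighted alike. LMO2, a bridging factor of erythroid transcription complexes, had 12.7, 9.33 and 11 FPKM in the D152V rescue, against 13.7, 9.64 and 13.5 in the knockdown, 26.5, 29.2 and 25.1 in the wild-type rescue and 30.3, 22.3 and 31.1 in the control. The D152V rescue overlapped the knockdown (difference -0.14, interval -0.52 to 0.24, adjusted p = 0.567) and lay below every wild-type rescue library (difference -1.22, interval -1.60 to -0.84, adjusted p = 0.000845). STAT5A, which carries cytokine signals to the nucleus, had 77.9, 81.5 and 64.7 FPKM in the D152V rescue, against 82.8, 62.8 and 56.7 in the knockdown and 138, 145 and 109 in the wild-type rescue. RUNX1, a master regulator of blood formation, had 13.8, 15 and 9.67 FPKM in the D152V rescue, against 11.6, 14.4 and 12.7 in the knockdown and 23.7, 29.8 and 19.6 in the wild-type rescue. Both genes overlapped the knockdown, with differences of 0.16 (interval -0.22 to 0.53, adjusted p = 0.504) and -0.03 (interval -0.43 to 0.37, adjusted p = 0.923). With library weights STAT5A was higher than the knockdown by 0.37 (adjusted p = 0.0293). Against the wild-type rescue they were lower by 0.80 and 0.88 on the log2 scale (adjusted p = 0.0109 and 0.00901).

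KIT, the receptor of stem cell factor, was lowly expressed. It had 3.93, 3.72 and 2.97 FPKM in the D152V rescue, against 1.74, 4.48 and 3.5 in the knockdown and 10.6, 7.84 and 7.94 in the wild-type rescue. MYC, which drives growth and ribosome production, had 127, 127 and 97.1 FPKM in the D152V rescue, against 71.2, 117 and 102 in the knockdown, 194, 183 and 178 in the wild-type rescue and 217, 218 and 178 in the control. The D152V rescue overlapped the knockdown in both genes (differences 0.15, interval -0.43 to 0.73, adjusted p = 0.686 for KIT, and 0.29, interval -0.11 to 0.69, adjusted p = 0.238 for MYC). It was below every wild-type rescue library in both (differences -1.11 and -0.66, adjusted p = 0.0186 and 0.0363). The KIT difference between the rescues was lost without D152V rescue replicate 2 (0.0555) or 3 (0.0781) or wild-type rescue replicate 1 (0.0807), and the STAT5A one without D152V rescue replicate 3 (0.0541) or wild-type rescue replicate 2 (0.0543); for MYC it was lost in 8 of the 11 settings tried, among them each leave-out of a D152V or wild-type rescue library (0.0665 to 0.147). MYB RNA was also lower in the D152V rescue than in the wild-type rescue, and its part in these differences was not tested.

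CDK6, a cell-cycle kinase, lay between. It had 27.7, 28.6 and 25.7 FPKM in the D152V rescue, against 15.4, 20.1 and 19.2 in the knockdown, 44, 42.4 and 41.5 in the wild-type rescue and 32.2, 32.8 and 27.9 in the control. No library overlapped among the first 3 groups: the difference was 0.57 from the knockdown (adjusted p = 0.00793) and -0.62 from the wild-type rescue (adjusted p = 0.00624). The first of these calls was lost with the length trend removed (0.0941) and in the fit to the 6 libraries (0.0915). Over the whole list of 19 tested MYB targets from the literature, 4 were higher and 2 lower than the knockdown, with a median of 0.16, against 13.7% higher, 12.5% lower and a median of 0.02 among all tested genes. Without knockdown replicate 1 the counts were again 4 and 2; the fit to the 6 libraries called none in either direction. Without D152V rescue replicate 1, 2 or 3 there were 1, 1 and 3 higher and 1 lower. Against the wild-type rescue none of the 19 was higher and 7 were lower, where 6.16% and 5.27% of all tested genes were. The lower members included CDC6, which licenses replication origins, at 34.3, 36 and 29.5 FPKM in the D152V rescue, against 43.1, 54.7 and 46.2 in the knockdown. BCL2, a survival gene often listed as a MYB target, did not pass the filter on low values: it had 0.4, 0.473 and 0.294 FPKM in the D152V rescue, against 0.271, 0.407 and 0.246 in the knockdown.

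**Figure D2:**
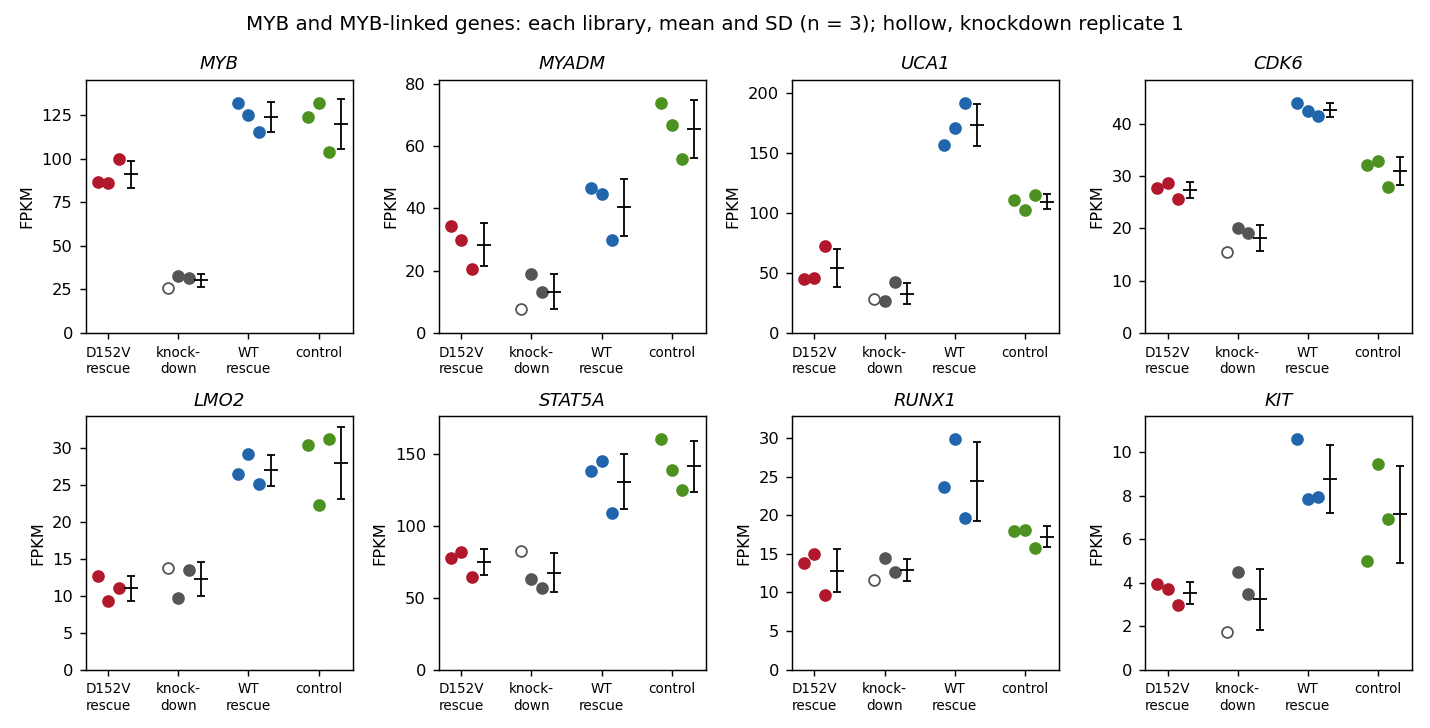
FPKM of MYB and 7 other genes fixed for reporting, in each library of the D152V rescue, knockdown, wild-type rescue and control. The mean and SD of each group (n = 3) stand beside the points, and the hollow point is knockdown replicate 1. In the D152V rescue MYB, MYADM, UCA1 and CDK6 lie above the knockdown, while LMO2, STAT5A, RUNX1 and KIT overlap it and lie below the wild-type rescue.

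Among 30 tested coactivators and corepressors of MYB, 8 were higher and 3 lower than the knockdown, with a median of 0.30, beside 13.7% higher and 12.5% lower among all tested genes. EP300, the acetyltransferase p300, had 8.62, 9.2 and 7.94 FPKM in the D152V rescue, against 2.69, 5.28 and 5.07 in the knockdown and 9.25, 9.99 and 8.59 in the wild-type rescue. PIAS1, a SUMO ligase, had 45.8, 39.3 and 42.6 FPKM in the D152V rescue, against 17.5, 23.5 and 26.5 in the knockdown and 26.7, 32.6 and 29.8 in the wild-type rescue. Neither overlapped the knockdown, with differences of 0.88 (adjusted p = 0.00732) and 0.91 (adjusted p = 0.0035). KAT2A, the acetyltransferase GCN5, and TAF12, a subunit of the general factor TFIID, were lower, by 0.79 and 0.56 on the log2 scale. KAT2A had 17.2, 14.7 and 18.3 FPKM in the D152V rescue, against 28.9, 30.5 and 29.3 in the knockdown. Without knockdown replicate 1 the list had 12 higher and 5 lower members, and in the fit to the 6 libraries 1 and 1; removing the length trend moved its median to 0.09. Without D152V rescue replicate 1, 2 or 3 the list had 4, 2 and 4 higher members and 2, 1 and 2 lower ones.

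Of 27 tested haematopoietic transcription factors, 5 were higher and 4 lower than the knockdown, and the median was -0.01. These shares are near the 13.7% and 12.5% of all tested genes. SPI1, the myeloid factor PU.1, was reduced: it had 6.92, 9.07 and 6.07 FPKM in the D152V rescue, against 22.7, 29.1 and 19.3 in the knockdown, 10.9, 14.1 and 9.44 in the wild-type rescue and 15.2, 22.2 and 12.7 in the control. The D152V rescue was the lowest group, with a difference of -1.56 (interval -2.06 to -1.06, adjusted p = 0.00114). The D152V and wild-type rescues did not differ in SPI1 in the unpaired fit (-0.58, adjusted p = 0.139) and differed with the replicate number as a block (0.00478). TAL1, an erythroid factor, and HHEX, a homeobox factor, were also lower, by 0.56 and 0.66, and KLF3, a repressor of the KLF family, was higher by 0.92. GATA1, the main erythroid factor, overlapped between the groups at 115, 119 and 138 FPKM in the D152V rescue, against 122, 117 and 135 in the knockdown (difference -0.01, interval -0.32 to 0.31, adjusted p = 0.975). KLF1, the factor of adult globin, had 52.5, 50.2 and 49.7 FPKM in the D152V rescue, against 74.8, 34.8 and 42.2 in the knockdown. Its difference was 0.08 with knockdown replicate 1 (adjusted p = 0.806) and 0.40 without it (adjusted p = 0.0291). GATA2, a progenitor factor, was higher by 0.47 (adjusted p = 0.0265), a call lost without D152V rescue replicate 1 (0.0924) or 2 (0.104) or knockdown replicate 3 (0.0597). The list had 5 higher and 7 lower members without knockdown replicate 1, and 1, 1 and 2 higher and 3 lower members without D152V rescue replicate 1, 2 or 3.

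Erythroid genes did not move as a block. HBE1, embryonic epsilon-globin, had 151, 168 and 428 FPKM in the D152V rescue, against 3300, 815 and 2030 in the knockdown, 47, 43.1 and 72.6 in the wild-type rescue and 900, 509 and 1220 in the control. The D152V rescue lay below every knockdown and control library and above every wild-type rescue library. The differences were -2.98 from the knockdown (interval -4.14 to -1.83, adjusted p = 0.00325) and 2.05 from the wild-type rescue (interval 0.89 to 3.21, adjusted p = 0.0272). The call between the rescues was lost without D152V rescue replicate 2 (0.0526) or 3 (0.114) or wild-type rescue replicate 1 (0.0907) or 2 (0.108). HBZ, embryonic zeta-globin, stood at 1920, 1510 and 2600 FPKM in the D152V rescue, against 1330, 428 and 1630 in the knockdown. These groups overlapped, and the difference of 1.01 (interval -0.20 to 2.22, adjusted p = 0.187) did not pass the test. With the replicate number as a block HBZ passed it (adjusted p = 0.0202). Against the wild-type rescue, at 564, 338 and 1190 FPKM, HBZ differed by 1.68, with an adjusted p of 0.0764 unpaired and 0.00265 with the replicate block. The fetal gamma-globins HBG1 and HBG2, which are near copies of each other, differed by -1.27 and -1.35 without passing the test (adjusted p = 0.0638 and 0.112); knockdown replicate 1 was the highest library for both, at 102 and 661 FPKM. Without knockdown replicate 2 both passed it (0.0127 and 0.0235), and with the replicate block HBG1 did. Of 9 tested globin genes 1 was lower and none higher, with a median of -1.27; without knockdown replicate 1 there was 1 in each direction and a median of -0.50, and without knockdown replicate 2 there were 6 lower and a median of -1.79. Quantile normalization gave 1 higher and 3 lower. Among all tested genes 13.7% were higher and 12.5% lower with all 12 libraries. Without knockdown replicate 2, 2044 of all 12726 tested genes were lower. Quantile normalization called 1969 of them higher and 1883 lower.

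**Figure D3:**
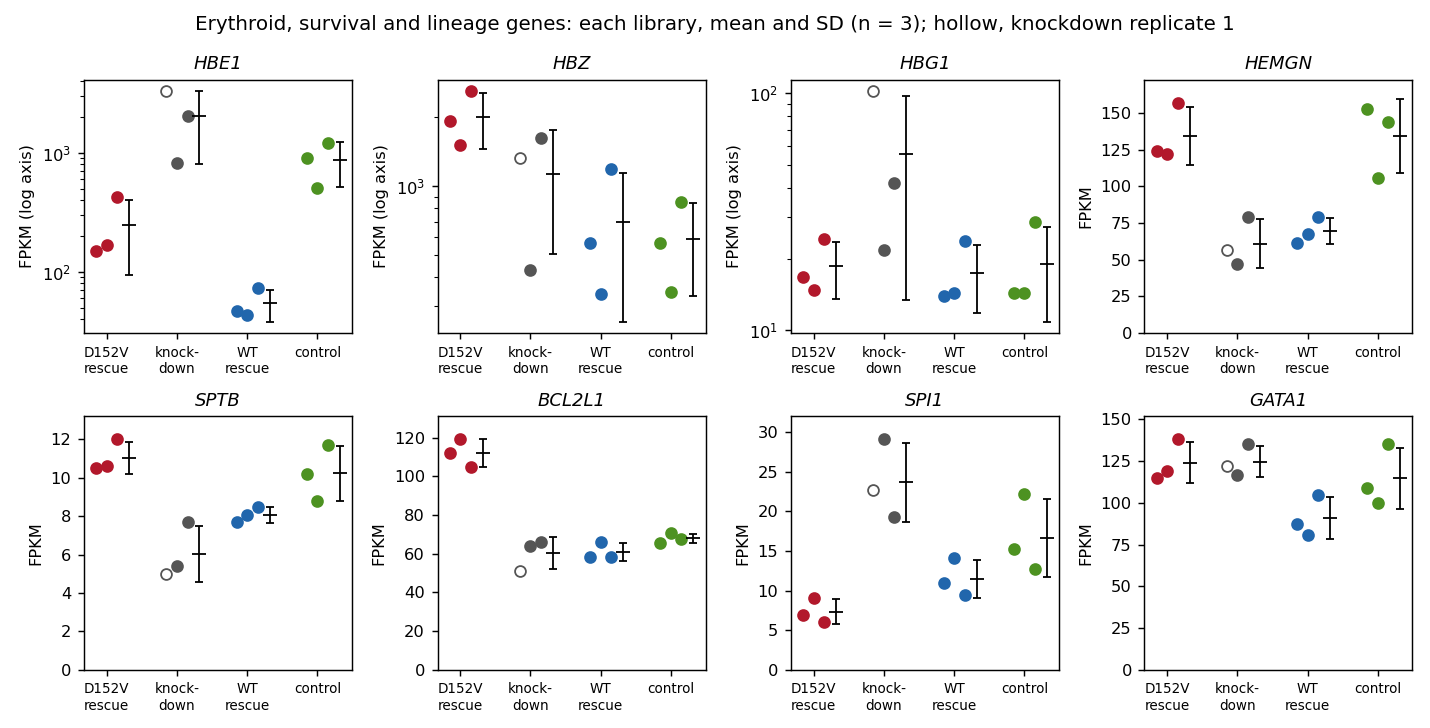
FPKM of 3 globin genes (log axes), the erythroid genes HEMGN and SPTB, the survival gene BCL2L1 and the lineage factors SPI1 and GATA1 in each library of the 4 groups, with the mean and SD of each group (n = 3); the hollow point is knockdown replicate 1. HBE1 in the D152V rescue lies between the wild-type rescue and the knockdown, BCL2L1 stands above the other groups at 105 to 119 FPKM, and GATA1 overlaps the knockdown.

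Of 23 tested red cell membrane and maturation genes, 5 were higher and 4 lower than the knockdown, with a median of 0.09, where 13.7% and 12.5% of all tested genes were. HEMGN, a nuclear protein of erythroid maturation, had 124, 122 and 157 FPKM in the D152V rescue, against 56.6, 47.2 and 79.2 in the knockdown, 61.4, 67.6 and 78.9 in the wild-type rescue and 153, 106 and 144 in the control. D152V rescue libraries were within the control range or above it, and above every knockdown and wild-type rescue library. The differences were 1.15 from the knockdown (interval 0.70 to 1.59, adjusted p = 0.00333) and 0.94 from the wild-type rescue (adjusted p = 0.0113, and 0.0556 without D152V rescue replicate 3 or 0.0535 without wild-type rescue replicate 1). SPTB, the beta-spectrin of the membrane skeleton, had 10.5, 10.6 and 12 FPKM in the D152V rescue, against 4.97, 5.4 and 7.72 in the knockdown. GYPE, a glycophorin with near copies, was lower by 1.04 and CD47, the surface signal that protects cells from phagocytosis, by 0.88. In heme synthesis, 3 of 14 tested genes were lower and none higher; SLC25A39, a mitochondrial carrier, had 94, 86.6 and 93.5 FPKM in the D152V rescue, against 201, 159 and 151 in the knockdown. Iron genes gave 3 higher and 3 lower of 17: TFR2, a transferrin receptor, was higher by 0.78 and BLVRB, a biliverdin reductase, lower by 0.88. The red cell list had 5 higher and 5 lower members without knockdown replicate 1, the heme list 4 lower and the iron list 4 higher and 3 lower. Without 1 of the D152V rescue libraries at a time, the iron list kept at most 1 higher and no lower member, the red cell list 2 higher and 2 or 3 lower, and the heme list 1 lower. Without knockdown replicate 3 the iron list had 6 higher and 4 lower members and the red cell list 8 and 3; without knockdown replicate 2 the red cell list had 3 and 5. Quantile normalization left 2 lower members in the red cell list. Among all 12726 tested genes, 2223 were higher and 2154 lower without knockdown replicate 3, and 1957 and 2044 without knockdown replicate 2. Under quantile normalization they were 1969 and 1883.

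The list of KIT, EPO receptor and STAT5 signalling genes gave 3 higher and 1 lower of 19 tested. The first share was near the 13.7% of all tested genes and the second below their 12.5%. GAB1, a docking protein of receptor kinases, had 6.96, 7.1 and 6.61 FPKM in the D152V rescue, against 1.18, 1.87 and 2.55 in the knockdown. IL2RG, the common gamma chain of interleukin receptors, had 41.8, 34.7 and 42.4 FPKM in the D152V rescue, against 20.7, 10 and 12.8 in the knockdown, 12.1, 9.44 and 14.7 in the wild-type rescue and 12.6, 8.84 and 12.7 in the control. Both were above the 9 other libraries, with differences of 1.49 (adjusted p = 0.00037) and 1.44 (adjusted p = 0.00257). SOS1, which activates RAS, was higher by 1.08, and PTPN6, a phosphatase that damps cytokine signals, lower by 1.39. The counts were 4 higher and 3 lower without knockdown replicate 1, and 5 and 2 without knockdown replicate 3. Among all 12726 tested genes they were 2229 and 2090, and 2223 and 2154, in the same order.

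In the BCL2 family 1 of 15 tested genes was higher and 5 were lower, where 13.7% and 12.5% of all tested genes were. The higher one was BCL2L1, which encodes the survival protein BCL-XL: it had 112, 119 and 105 FPKM in the D152V rescue, against 51, 63.8 and 66 in the knockdown, 58.1, 66.2 and 58 in the wild-type rescue and 65.7, 70.5 and 67.4 in the control. The 3 other groups overlapped with each other and none reached the D152V rescue. Its differences were 0.89 from the knockdown (interval 0.63 to 1.15, adjusted p = 0.000734) and 0.87 from the wild-type rescue (adjusted p = 0.000679). BNIP3, BID and BAD, which promote cell death, were lower by 1.12, 0.87 and 1.15. BNIP3 had 12.5, 11.3 and 12.7 FPKM in the D152V rescue, against 34.8, 23 and 25.7 in the knockdown, and lay below all 9 other libraries. BAD had 4.1, 4.25 and 4.73 FPKM in the D152V rescue, against 14.6, 8.57 and 10.4 in the knockdown, and overlapped the control. The calls of BCL2L1, BNIP3, BID and BAD against the knockdown held in each setting tried. Among death receptors and caspases 4 of 20 were higher and 2 lower. FAS, a death receptor, was low but separate at 1.93, 1.62 and 1.31 FPKM in the D152V rescue, against 0.399, 0.381 and 0.518 in the knockdown, and CFLAR, an inhibitor of caspase-8, was higher by 0.66, a call lost with the length trend removed (0.131). The BCL2 family had 1 higher and 6 lower members without knockdown replicate 1, and the death receptors and caspases 4 and 3. Without D152V rescue replicate 1, 2 or 3 the BCL2 family had 1 higher and 4 lower members, and the death receptors and caspases 3, 2 and 4 higher and none lower.

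Proliferation genes gave no common direction. Of 20 tested G1 cyclins, CDK6 and CDK inhibitors, 3 were higher and 3 lower; of 34 mitosis and spindle genes 4 were higher and 1 lower; and of 39 replication genes 2 were higher and 8 lower, with a median of -0.22. Among all tested genes 13.7% were higher and 12.5% lower. CCNE1, cyclin E, overlapped at 18.3, 22.6 and 20.9 FPKM in the D152V rescue, against 31.9, 19.1 and 16.6 in the knockdown. The mitotic spindle gene ASPM had 30.7, 29.4 and 33.3 FPKM in the D152V rescue, against 18.5, 18 and 21.9 in the knockdown, and CENPF, a kinetochore protein, was higher by 0.61. RPA2, a subunit of the single-strand binding complex RPA, had 83.1, 98.8 and 91.9 FPKM in the D152V rescue, against 189, 146 and 136 in the knockdown. With the length trend removed, ASPM and CENPF lost their calls (adjusted p = 0.0957 and 0.142). Without knockdown replicate 1 the replication list had 3 higher and 9 lower members and a median of -0.05, and the mitosis list 9 and 2. Among immediate early genes 6 of 19 were higher and 3 lower, with a median of 0.02. BTG2, an antiproliferative gene, had 18.8, 20.9 and 19.9 FPKM in the D152V rescue, against 8.85, 11.9 and 11.4 in the knockdown. EGR1, a growth-factor response gene, had 28.7, 29.2 and 94.2 FPKM in the D152V rescue, against 3.32, 7.06 and 14.9 in the knockdown, and lost its call without D152V rescue replicate 3 (0.0585). The G1 list had 2 higher and 5 lower members without knockdown replicate 1, and the immediate early list 5 and 3. Without D152V rescue replicate 1, 2 or 3 the replication list had no higher and 2, 3 and 3 lower members, the mitosis list 2 higher and 0, 0 and 1 lower, the G1 list 2 and 2, and the immediate early list 3 higher and 1, 1 and 2 lower. Without knockdown replicate 3 the replication list had 2 higher and 13 lower members, the mitosis list 9 and 1, the G1 list 6 and 4 and the immediate early list 3 and 4. Quantile normalization gave 9 higher and no lower members of the mitosis list. Among all 12726 tested genes, 2229 were higher and 2090 lower without knockdown replicate 1, and 2223 and 2154 without knockdown replicate 3. Under quantile normalization they were 1969 and 1883, and without 1 D152V rescue library at a time 834 to 1008 and 777 to 884.

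Genes of the cytosolic ribosome, the respiratory chain and the mitochondrial ribosome gave called members in 1 direction, lower in the D152V rescue. Of 78 cytosolic ribosomal protein genes 56 were lower and none higher, with a median of -1.04, against 12.5% lower and a median of 0.02 over all tested genes. RPL27 had 755, 762 and 676 FPKM in the D152V rescue, against 1910, 2210 and 1820 in the knockdown, 1020, 1050 and 1080 in the wild-type rescue and 1230, 1420 and 1340 in the control. RPS21 had 317, 308 and 247 FPKM in the D152V rescue, against 1690, 923 and 700 in the knockdown, 252, 214 and 239 in the wild-type rescue and 347, 376 and 435 in the control. The knockdown was the highest group in both; the D152V rescue was the lowest for RPL27 and lay between the control and the wild-type rescue, which it overlapped, for RPS21. Subunits of the respiratory chain encoded in the nucleus gave 36 of 72 lower (median -0.79) and mitochondrial ribosomal proteins 20 of 77 lower (median -0.51), with none higher in either. NDUFB2, a subunit of complex I, had 67.5, 74 and 72.1 FPKM in the D152V rescue, against 249, 136 and 142 in the knockdown.

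These medians moved with knockdown replicate 1: without it they were -0.64, -0.41 and -0.21 in the same order, with 63, 46 and 35 members lower and 0, 1 and 3 higher. Under quantile normalization the ribosomal median was -0.41 with 32 lower members, and with the length trend removed -0.79 with 53; RPL27 lost its call under the first (adjusted p = 0.066). Without 1 D152V rescue library at a time, 31 to 36 ribosomal, 19 to 21 respiratory chain and 9 to 11 mitochondrial ribosomal genes were lower, and in the fit to the 6 libraries 4, 2 and 0. Ribosomal protein genes took 10.9% to 12.4% of all FPKM in the D152V rescue, against 23, 16.9 and 16% in knockdown replicates 1 to 3 and 10.1% to 14.2% in the other groups. Many of these genes have processed copies that share reads. Against the control the ribosomal list had a median of -0.23, with 1 of 78 lower and none higher; without knockdown replicate 1, which enters that fit through the shared spread, 32 were lower. Of all tested genes, 4.82% were higher and 4.86% lower than the control, and 11.8% and 16.7% without that library.

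Transcript length moved with the direction of the difference across all genes. Of 1589 genes with transcripts under 1 kb, 22.7% were lower and 5.79% higher, with a median of -0.36. Of 4149 genes over 4 kb, 4.39% were lower and 22.1% higher, with a median of 0.27. In knockdown replicate 1, genes under 1 kb stood 0.87 above and genes over 4 kb 0.49 below the control mean, on the log2 scale. The other knockdown libraries showed the same tilt at a smaller size (0.14 and 0.16 above, 0.14 and 0.11 below), while in the D152V rescue libraries the medians of all length classes were between -0.09 and 0.03. Without knockdown replicate 1 the class medians were -0.16 under 1 kb and 0.14 over 4 kb. Lengths are those of GENCODE transcripts, and the part of length in the results for any gene or list was not tested beyond the values with the trend removed.

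**Figure D4:**
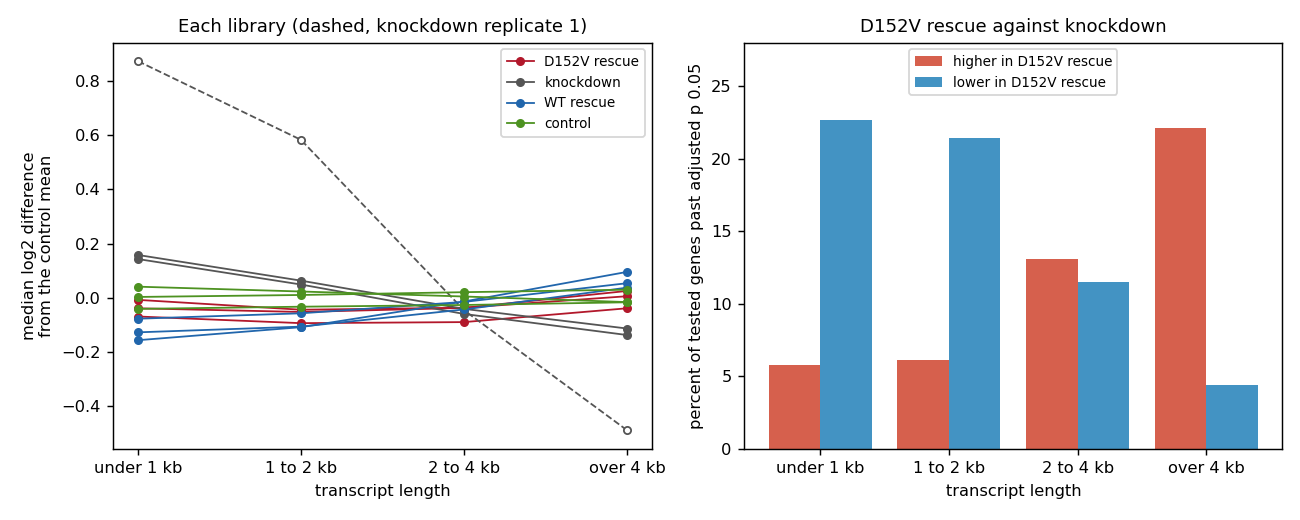
Left, median log2 difference of each library from the control mean in 4 classes of transcript length; the dashed line is knockdown replicate 1, which runs from 0.87 under 1 kb to -0.49 over 4 kb. Right, percent of tested genes in each class that were higher or lower in the D152V rescue than in the knockdown, with 22.7% lower under 1 kb and 22.1% higher over 4 kb.

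Stress and metabolic lists moved little as wholes. Of 23 tested genes of the ATF4 programme and serine synthesis, 5 were lower and none higher, with a median of -0.10. PSAT1, an enzyme of serine synthesis, had 15.5, 17.5 and 14.5 FPKM in the D152V rescue, against 40.2, 34.5 and 27.1 in the knockdown, 26.2, 26 and 31.2 in the wild-type rescue and 34, 34.1 and 31.5 in the control. It was below all 9 other libraries, with a difference of -1.04 (interval -1.36 to -0.72, adjusted p = 0.000993). PHGDH and PSPH, of the same pathway, were lower by 0.91 and 0.51 and overlapped the wild-type rescue; leaving out D152V rescue replicate 1 or 2 ended the PHGDH call (adjusted p = 0.0823 and 0.0788), and the PSPH call ended without either (0.0554 and 0.0896) or without knockdown replicate 2 (0.053). In MHC class I presentation 1 of 12 was higher and 3 lower: PSMB8, an immunoproteasome subunit, was the lowest in the D152V rescue, at 0.154, 0.215 and 0.156 FPKM in the D152V rescue, against 1.97, 1.6 and 1.78 in the knockdown. B2M, the light chain of MHC class I, had 516, 656 and 701 FPKM in the D152V rescue, against 1390, 942 and 948 in the knockdown, a call that quantile normalization (adjusted p = 0.684) or leaving out D152V rescue replicate 1 (0.0532) removed. Of 19 tested interferon-induced genes, IFI16 and the IFITM genes among them, 2 were higher and 4 lower. Of 22 tested glycolysis genes 2 were higher and 2 lower. ENO1, enolase, was lower by 1.05, a call lost under quantile normalization (0.0732), and SLC2A3, a glucose transporter, was higher by 0.56 at 89.9, 95.9 and 84.3 FPKM in the D152V rescue, against 56.9, 64.6 and 60.2 in the knockdown. Cholesterol synthesis gave 1 higher and 4 lower of 25, histone genes 1 lower of 23, and heat shock proteins 2 lower of 21. The MYC partners of the MAX network gave 2 higher and 2 lower of 11, MYC-driven genes 3 lower of 21, ribosome biogenesis 1 higher and 4 lower of 36, and the unfolded protein response 2 higher and 3 lower of 22. Aminoacyl-tRNA synthetases gave 1 in each direction of 20. With knockdown replicate 1 left out the counts were 4 higher and 5 lower for glycolysis, 2 and 6 for cholesterol synthesis, 3 and 3 for heat shock proteins, 3 and 7 for MYC-driven genes, 8 and 6 for ribosome biogenesis, 4 and 4 for interferon-induced genes and 0 and 5 for the ATF4 list. Under quantile normalization glycolysis had 6 higher and none lower, MYC-driven genes 6 and 5 with a median of 0.23 in place of -0.15, heat shock proteins 4 and 2, and ribosome biogenesis 4 and 6. Without D152V rescue replicate 1, 2 or 3 the ATF4 list had 1, 1 and 3 lower members and cholesterol synthesis 0, 0 and 1. In the lists of this paragraph the shares called with all 12 libraries stood beside 13.7% higher and 12.5% lower among all tested genes. Without knockdown replicate 1 the all-gene shares were 17.5% and 16.4%. Quantile normalization called 1969 of all 12726 tested genes higher and 1883 lower. Without 1 D152V rescue library at a time, 834 to 1008 were higher and 777 to 884 lower.

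Markers of other cell types varied. Below 1 FPKM in all 6 libraries were 5 of 7 megakaryocyte, 6 of 9 monocyte and granulocyte and 4 of 7 lymphoid markers. Of 9 fibroblast and epithelial markers 6 passed the filter. Of 7 megakaryocyte markers GP9 and PF4 were listed at 0 in all 6 libraries and the summed FPKM of the list was 1.23 to 2.3 in the D152V rescue, against 1.57 to 3.79 in the knockdown. ITGA2B overlapped at 0.811, 1.54 and 0.985 FPKM in the D152V rescue, against 0.877, 1.22 and 1.94 in the knockdown. Of the wider list of megakaryocyte and platelet genes 2 of 9 tested were higher and 1 lower. The called counts of this paragraph stand beside 13.7% higher and 12.5% lower among all tested genes. THBS1, the platelet protein thrombospondin, had 4.96, 7.84 and 2.95 FPKM in the D152V rescue, against 0.538, 2.54 and 1.14 in the knockdown, and lost its call without D152V rescue replicate 2 (0.0613). GP6, the platelet collagen receptor, was lower by 1.01. The K-562 erythroid markers summed to 2210 to 3770 FPKM in the D152V rescue, against 1780 to 5910 in the knockdown, and all 10 passed the filter, 3 of them lower. Monocyte and granulocyte markers summed to 21.8 to 31.2 in the D152V rescue, against 45.2 to 82.4 in the knockdown, with 2 of 9 lower, 6 below an FPKM of 1 in every library and ELANE at 0. Fibroblast and epithelial markers summed to 430 to 548 in the D152V rescue, against 699 to 2630 in the knockdown, with 3 of 9 lower. Most of that sum was the keratins KRT8 and KRT18, which were present in every group. KRT8 had 182, 250 and 246 FPKM in the D152V rescue, against 1520, 501 and 360 in the knockdown, and lost its call without D152V rescue replicate 1 (0.067). Lymphoid markers summed to 80.7 to 114 in the D152V rescue, against 22.8 to 105 in the knockdown, with 1 of 7 higher, 1 lower and MS4A1 at 0. In a bulk sample, fewer cells of a type and less RNA per cell cannot be told apart.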

How the data were processed

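Poly(A) RNA of K-562 cells was sequenced as 125-base read pairs, per the series' design text. Per the submitters' processing notes, the tools were Cufflinks 2.2.1, with the build GRCh38, TopHat2 2.0.13, Trimmomatic 0.33 and bcl2fastq 2.17.1.14; the sources used here give neither their settings nor the use of strand. The authors deposited gene-level FPKM for the 12 libraries in 1 table of 60658 genes. FPKM are not counts. Ratios of values below 0.1 FPKM were taken between pairs of libraries. In the median pair, 4.91% of them lay within 2% of the median ratio of that pair. This share does not decide whether whole reads could be recovered. Read counts were not recovered, and the depth is unknown.

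Testing took the genes that reached an FPKM of 1 in 3 or more of the 6 libraries compared, on log2(FPKM + 1) with limma 3.58.1 in R 4.3.3 (group means of all 12 libraries, variance trend, 8 residual and 3.36 prior degrees of freedom), two-sided, with Benjamini-Hochberg adjustment over 12726 genes. The same fit gave D152V rescue minus wild-type rescue, which tests whether the rescues differ, and minus control. These comparisons share libraries. The code was tested on simulated data. Python 3 tables and figures used pandas and matplotlib.

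The genes compared, the 35 gene lists and the tests were chosen with earlier results of these data known. Genes were named by a rule: MYB, the 12 largest increases and decreases among called genes with groups that do not overlap, a symbol and a mean of at least 5 FPKM, up to 4 called genes with the smallest p of each list with 3 or more called members, and 27 fixed genes, 141 in all, of which the text describes a part; MT-CO2 was added after its values were seen. A gene of the marker lists is not reported here.

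Replicate numbers may mark shared experiments. Deviations of same-numbered libraries correlated at 0.333, 0.132 and 0.352 between the D152V and wild-type rescues. The values given for that pair still come from the unpaired fit, without a replicate block. The value with the replicate block is given beside them where it changes a call. Transcript lengths came from GENCODE v44 (GRCh37), found for 12482 tested genes, and coordinates from RefSeq GRCh38.p14, matched by symbol. The labels speak of 3 individual experiments but not of separate cultures of each line, so p-values measure the spread between these libraries.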

Additional observations from a re-analysis of the deposited data

Results flagged for a closer look

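The D152V rescue and the wild-type rescue differed past limma's adjusted threshold for 27 of the genes with the largest changes and the fixed genes. They are listed here because they passed it. Others of the genes described did not, among them MYB (adjusted p = 0.0512), HBZ (0.0764), SPI1 (0.139), CALB1 (0.174), MYADM (0.341) and AIF1 (0.439). The knockdown enters both responses and drops out of their difference. The values are D152V rescue minus wild-type rescue on the log2(FPKM + 1) scale, and each rescue was 1 line. Over the 381 tested genes of chromosome 15 the median of this difference was 0.36. On the other numbered chromosomes it was -0.13 to 0.02, and on the X 0.17. Against the control the chromosome 15 median of the D152V rescue was -0.11. The part of this shift in single genes was not tested.

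The D152V rescue was above the wild-type rescue for TUBA3C (5.35), TPD52 (4.52), ENAH (3.92), RBPMS2 (3.70), ALDH1L1 (3.42), SCN2A (2.59), IL1RL1 (2.07), HBE1 (2.05), GOLM1 (1.90), LIF (1.82), IFI16 (1.42), PAK1 (1.15), HEMGN (0.94) and BCL2L1 (0.87). It was below it for H19 (-5.67), SSX3 (-3.66), PPP1R3B-DT (-3.41), PIGY (-2.47), IFITM2 (-2.10), UCA1 (-1.68), IFITM3 (-1.59), LMO2 (-1.22), KIT (-1.11), RUNX1 (-0.88), STAT5A (-0.80), MYC (-0.66) and CDK6 (-0.62). For each of these genes the 3 D152V rescue libraries did not overlap the 3 wild-type rescue libraries. With the replicate number as a block, which the libraries of this pair share, the IFITM2 difference lost its call (adjusted p = 0.0606). The IFITM2 call was also lost without any 1 of the 3 D152V rescue or 3 wild-type rescue libraries (0.0906 to 0.176), and the LIF call without D152V rescue replicate 1 (0.0906) or 2 (0.0888) or wild-type rescue replicate 2 (0.0559) or 3 (0.083).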

How the results depend on the processing

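The counts of called genes depended on which libraries set the spread. Leaving out 1 library at a time gave 834 to 2229 higher and 777 to 2154 lower genes for the D152V rescue against the knockdown. The lowest counts came without a D152V rescue library. For the D152V rescue against the wild-type rescue the same gave 504 to 1828 higher and 357 to 2203 lower, where all 12 libraries gave 784 and 671. Against the control it gave 378 to 1506 higher and 320 to 2129 lower, beside 613 and 619. Each of these highest counts against the wild-type rescue and the control came without knockdown replicate 1, which enters those fits through the shared spread alone. Against the knockdown, a threshold of 0.01 gave 626 higher and 517 lower, the fit to the 6 libraries 341 and 213, and library weights 2687 higher. With no filter on low values 1023 genes were lower than in the wild-type rescue. Between the D152V rescue and the knockdown, same-numbered libraries correlated at -0.0236, 0.102 and 0.133, and unlike-numbered ones at -0.176 to 0.116. Knockdown replicate 1 stood apart and enters every deviation of its group. These values therefore do not decide whether the numbers pair these groups. The replicate block there gave 1967 higher and 1665 lower genes, with HBG1 (adjusted p = 0.0464) and HBZ (0.0202) called in addition and MXD1 (0.0577) and SLC25A38 (0.0666) lost. Against the wild-type rescue the block gave 914 and 782, and against the control 726 and 702. No called gene named here changed direction under any alternative. FPKM hold no read counts, so the precision of low values is unknown.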

Other observations

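Some further genes, chosen after their values were seen, set the D152V line apart from at least some of the other groups. MAGEA1, a cancer-testis gene of the X chromosome, had 79.3, 90.8 and 77.2 FPKM in the D152V rescue, against 28.8, 40.4 and 30.9 in the knockdown (limma adjusted p = 0.00016) and 41, 36.3 and 34.7 in the wild-type rescue. PAGE2B, another such gene, had 0.217, 0.748 and 0.904 FPKM in the D152V rescue, against 11.5, 5.33 and 5.91 in the knockdown. It was low in the wild-type rescue too, at 1.29, 1.79 and 1.3 FPKM. The rescues differed there by -0.62 (limma adjusted p = 0.15, and 0.0177 without knockdown replicate 1). DLK1, an imprinted gene, had 0.407, 0.514 and 0.991 FPKM in the D152V rescue, against 5.9, 4.68 and 5.46 in the knockdown (adjusted p = 0.000605) and 4.45, 7.76 and 8.91 in the wild-type rescue. MAGEA1 was thus higher in the D152V rescue than in these groups, and DLK1 and PAGE2B lower than in the knockdown. SSX1, a near copy of SSX3, overlapped at 118, 118 and 116 FPKM in the D152V rescue, against 127, 95.1 and 87.4 in the knockdown, of which replicate 1 alone reached the D152V rescue values. Its difference from the knockdown was 0.20 (adjusted p = 0.33), and 0.36 without that library (0.0225). From the wild-type rescue, at 54.7, 50.5 and 42.8 FPKM, it differed by 1.24 (adjusted p = 0.000275).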
